A study of Mus musculus with 550 samples.

Results

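The genes described here are p53 itself, a set of its targets and the regulators of apoptosis that act next to them: Trp53, Mdm2, Cdkn1a, Ccng1, Phlda3, Bax, Bbc3, Bcl2l1, Bcl2l11 and Mcl1. They were taken by name, 10 of the 55228 gene names in the count table, and their reads were taken from the 486 cells, of 550, that passed the filter. The cells came from embryoid bodies (EBs), aggregates in which mouse embryonic stem cells (ESCs) differentiate once leukaemia inhibitory factor is withdrawn. The table gives reads per gene and cell from a modified Smart-seq2 protocol, a full-length method without molecular identifiers.

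All cells derived from the E14 ESC line, labelled with strain 129/Ola. WT cells were compared with Dnmt3a -/- cells (3AKO) and Dnmt3b -/- cells (3BKO), which lack one of the de novo DNA methyltransferases, at day 3 and day 9 of EB culture. The study describes 2 independent clones for each mutant, and its methods give 50 EBs for each clone of a genotype, from which live cells were sorted. The labels give a genotype, a day and a library batch for each cell but no clone, which leaves 1 sample for any genotype on a given day, 6 in all, and no test was possible. What follows are levels and ratios, with the 2 library batches set side by side as the only spread between libraries. At day 9 each genotype had its own plate, 234 for WT, 236 for 3AKO and 238 for 3BKO. WT at day 3 was on plate 209. Both batches of each of these groups came from the 1 plate of that group. Genotype at day 9 and day in WT therefore cannot be told apart from plate. In a pool of this kind, fewer cells that express a gene and less RNA per cell were told apart only through the single-cell values given below.

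The transcription factor p53 is held at a low level by Mdm2, an E3 ubiquitin ligase that marks it for degradation. On DNA damage and other stresses p53 is stabilised and raises transcription of genes that arrest the cell cycle or promote cell death, and also of Mdm2 itself, which closes a negative feedback loop. The BCL2 family decides on permeabilisation of the mitochondrial outer membrane: BAX forms the pore, the BH3-only proteins PUMA (Bbc3) and BIM (Bcl2l11) favour it, and BCL-XL (Bcl2l1) and MCL1 oppose it. Mouse ESCs are known for abundant p53 and for a short G1 phase.

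The filter kept 79 WT cells, 83 cells labelled 3AKO and 80 labelled 3BKO at day 3, and 89 WT, 88 3AKO and 67 3BKO cells at day 9. The kept share was lowest in 3BKO at day 9, 72.04%, against 86.8% to 97.8% in the other groups. Summed reads per group ranged from 19713905 to 34821361, and the median per cell from 214366 to 363652. Batch 2 had the higher mitochondrial share in each group, with medians of 9.09% to 13.5% against 3.58% to 6.31% in batch 1. Pluripotency and epiblast markers were read in all groups, and the haematopoietic marker Ptprc and the trophoblast marker Cdx2 were at 0 in all 6. Levels are given as CPM, the reads of a gene over all cells of a group or library scaled to the total of that group or library. The sum over 7 pluripotency and epiblast markers at day 9 came to 2335 CPM for WT, 1803 for 3AKO and 3693 for 3BKO. The 7 include Dnmt3b, the gene deleted in 3BKO, which was at 16.4 CPM there against 167 in WT. Nanog and Zfp42, which the study lists as naive pluripotency markers, carried the sum in 3BKO, at 1004 and 2269 CPM. Fgf5 and Lefty1, which it lists as primed markers, were at 2.11 and 209 CPM there, against 61.1 and 444 in WT. The log2 ratios of Lefty1 were -1.17 in batch 1 and 0.20 in batch 2. None of the 7 was at 0 in any group, and of 5 ectoderm, 7 meso-endoderm and 5 trophoblast markers 2, 3 and 2 were at 0 in 3BKO. Markers of other cells were read as well. Pecam1, an adhesion molecule of endothelium that ESCs also express, was past 2-fold higher in 3BKO at day 9 (136 against 37.9 CPM in WT, log2 ratio 1.82) and made up most of the 3 markers of other cells, whose sum was 130.3 to 144 CPM in the batches of 3BKO and 14.6 to 54.97 in those of WT. Krt18, a keratin gene, was past 2-fold higher in 3AKO (45.7 against 6.98 CPM, 2.55), where the sum of the 5 trophoblast markers was 27.5 to 80.1 CPM by batch, against 12.2 to 26.2 in WT. Krt18 made up most of the sum in 3AKO, 58.3 CPM over both batches. Krt8 was at 12.5 against 8.53 CPM in WT, Krt7 at 0 against 5.92, and Cdx2 and Elf5 at 0 in both. The part of these marker differences in the results for either mutant was not tested.

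The deleted genes checked the labels. Dnmt3a was at 25.2 CPM in 3AKO against 166 in WT at day 9, and Dnmt3b at 16.4 in 3BKO against 167. At day 3 the batch 1 libraries went with their labels, while the batch 2 libraries did not. Dnmt3a was at 335 CPM in the batch 2 library labelled 3AKO and at 12.8 in the one labelled 3BKO, against 267 in WT of batch 2. Comparisons of mutants at day 3 therefore use batch 1, and batch 2 is given by plate further on.

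Per kilobase of exon, which allows genes to be compared, the 10 genes covered a wide range over all kept cells. Trp53 was the highest at 228 CPM per kb, ahead of Bax at 172. Mcl1 (59.8), Phlda3 (54.9), Ccng1 (47.4), Cdkn1a (29.99) and Mdm2 (29.7) formed a middle range. Bcl2l1 had 9.21, Bbc3 6.004 and Bcl2l11 1.64 CPM per kb. Trp53 and Bax had a read in each of the 486 cells after thinning to 50000 reads per cell, whereas Bbc3 had one in 26.3% of cells and Bcl2l11 in 20.8%. The spread between cells was smallest for the highest genes, Trp53 and Bax, and widest for the lowest, Bbc3 and Bcl2l11. The coefficient of variation of single-cell CPM was 0.602 for Trp53 and 0.559 for Bax, 1.09 to 1.68 for Mcl1, Ccng1, Bcl2l1, Phlda3, Cdkn1a and Mdm2, and 2.11 and 2.75 for Bbc3 and Bcl2l11.

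On GRCm38 (GENCODE vM21) Trp53 lies at chr11:69580359-69591873 on the + strand and Ccng1, for cyclin G1, at chr11:40748552-40755311 on the - strand. Mdm2 lies at chr10:117688875-117710758 (-), Cdkn1a, for the CDK inhibitor p21, at chr17:29090976-29100727 (+) and Phlda3, for a pleckstrin homology domain protein that restrains AKT, at chr1:135766119-135769136 (+). The apoptosis genes are Bax at chr7:45461697-45466898 (-), Bbc3 at chr7:16308393-16318205 (+), Bcl2l1 at chr2:152780668-152831728 (-), Bcl2l11 at chr2:128126038-128162547 (+) and Mcl1 at chr3:95658788-95663176 (+). All 10 are protein coding, and reads were counted over their exons, untranslated regions included. Bax shares 192 exon bases with Gm45808 on the same strand, and Cdkn1a shares 273 with AC167363.2 on the opposite strand. The strand setting of the counting is not stated, so reads in these overlaps are uncertain. Trp53 has the pseudogene Trp53-ps, and reads that mapped to several places were left out by the authors.

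Within a library group, meaning cells of 1 genotype label, day and batch, the p53 targets varied together from cell to cell. Spearman's rho was computed on reads thinned to 50000 per cell in each of the 12 library groups, which hold 486 cells, and averaged over the groups, as a description with no test. Cdkn1a and Phlda3 had the highest mean rho, 0.48, with 0.08 to 0.70 in single groups. Ccng1 and Phlda3 followed at 0.44, Mdm2 and Ccng1 at 0.38, Cdkn1a and Ccng1 at 0.37, Mdm2 and Phlda3 at 0.36 and Mdm2 and Cdkn1a at 0.31. Only the last of these 6 pairs had a group below 0. That single group had a rho of -0.44, and the pair was above 0 in the other 11 of 12.

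The apoptosis genes divided. Bbc3, which encodes the BH3-only protein PUMA, varied with Ccng1 (0.32), Phlda3 (0.30) and Cdkn1a (0.24), all above 0 in 12 of 12 groups. Bax varied with Phlda3 (0.25), Cdkn1a (0.25) and Trp53 (0.20). Mcl1, Bcl2l1 and Bcl2l11 stood apart, and their highest value with any of the 10 genes was 0.17, for Mcl1 with Cdkn1a. Bcl2l1 and Mcl1, which both encode survival proteins, gave the lowest value of all 45 pairs, -0.11. The transcript of Trp53 itself varied little with those of its targets, with 0.07 for Mdm2, 0.12 for Cdkn1a, 0.14 for Phlda3 and -0.02 for Ccng1. Of the 45 pairs, 36 had a mean rho above 0 and 12 lay above 0.19, the 99th percentile of the rho of the genes with 6623 genes compared. The median over the pairs was 0.07, against -0.00011 for the genes with all genes compared. Cells of a library group share their plate and library batch, and rare transcripts hold rho down, so values for Bbc3 and Bcl2l11 are not on the same footing as those of well-read genes.

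**Figure D1:**
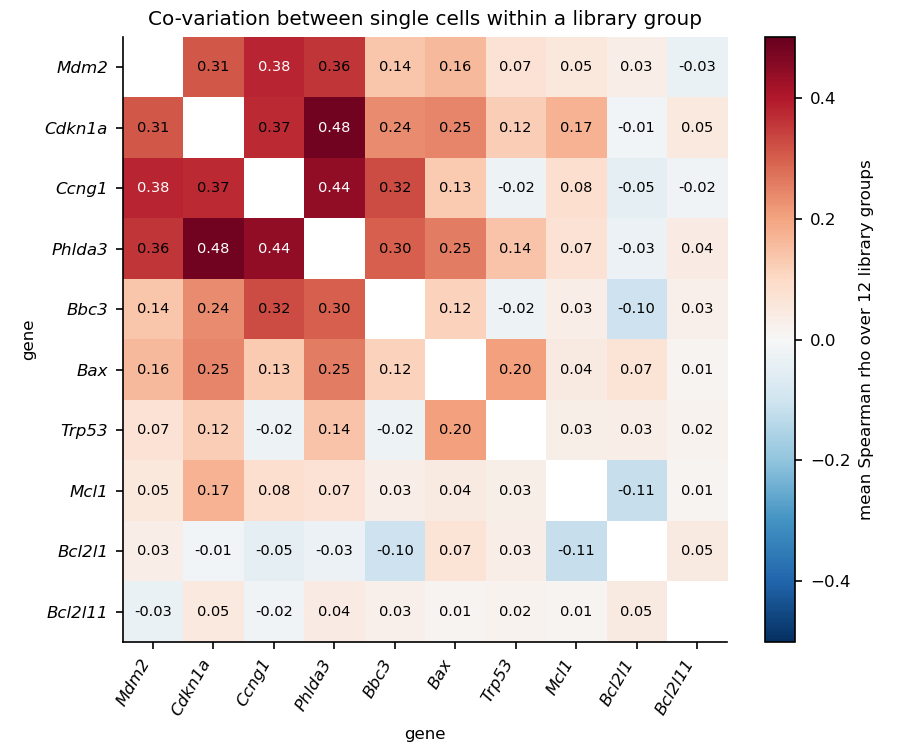
Mean Spearman's rho between single cells for each pair of the 10 genes, on reads thinned to 50000 per cell and averaged over 12 library groups; both axes list the genes and the colour gives rho. Mdm2, Cdkn1a, Ccng1 and Phlda3 form a block of values from 0.31 to 0.48, and the row of Bcl2l1 stays between -0.11 and 0.07.

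The genes most like each member were taken from the 6623 genes read in at least 20% of the cells of each library group. For 5 of the members another member led the list. Ccng1 was first for Mdm2, and Phlda3 was the second at 0.36. Phlda3 was first for Cdkn1a and for Ccng1, and Cdkn1a was first for Phlda3. Trp53inp1, a known p53 target, was the second for Ccng1 at 0.42. Dhx16, an RNA helicase, was the second for Cdkn1a at 0.44 and for Phlda3 at 0.48. Ccng1 (0.32) and Phlda3 (0.30) were also the first and the second for Bbc3. Trp53 was most like Polr2e, Rpl19 and Ifitm1, each at 0.33, and Bcl2l1 most like Cox4i1 at 0.23. Mcl1 was most like Lrrc2 at 0.25. Bcl2l11 was read in too few cells for this ranking.

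Technical and cell-state measures had mean rho values nearer 0 with the 4 leading targets, while single groups went both ways. Over the 12 groups the mean rho with the mitochondrial share was 0.08 for Mdm2, 0.01 for Cdkn1a, 0.12 for Ccng1 and 0.02 for Phlda3, and single groups spanned -0.50 to 0.51 for Cdkn1a. With the summed level of the amino acid stress genes it was 0.06 for Mdm2, with -0.41 to 0.62 in single groups. With the summed level of 15 cell cycle genes it was -0.12, -0.03, -0.16 and -0.10 for Mdm2, Cdkn1a, Ccng1 and Phlda3, with -0.46 to 0.32 in single groups. Trp53 had a mean rho of -0.26 with the mitochondrial share. The part of these measures in the co-variation was not tested.

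The promoters of the 4 targets that varied together are shown because p53 acts by binding DNA near such genes. Each is the RefSeq window on GRCm38.p6 from 250 bases before to 50 after the start site, and windows were found for 10 of 10 genes, 16 in all. Capitals mark matches to the p53 decamer, the 10-base unit of the p53 response element, searched on both strands. The windows are chr17:29090729-29091028 (+) for Cdkn1a, chr10:117710709-117711008 (-) for Mdm2, chr11:40755237-40755536 (-) for Ccng1 and chr1:135765835-135766134 (+) for Phlda3.
Cdkn1a: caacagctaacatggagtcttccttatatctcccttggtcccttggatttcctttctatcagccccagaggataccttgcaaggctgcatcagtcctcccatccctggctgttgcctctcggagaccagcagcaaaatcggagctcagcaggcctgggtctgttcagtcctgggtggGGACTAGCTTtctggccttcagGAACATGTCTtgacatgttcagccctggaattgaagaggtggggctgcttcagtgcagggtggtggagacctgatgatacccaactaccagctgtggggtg
Mdm2: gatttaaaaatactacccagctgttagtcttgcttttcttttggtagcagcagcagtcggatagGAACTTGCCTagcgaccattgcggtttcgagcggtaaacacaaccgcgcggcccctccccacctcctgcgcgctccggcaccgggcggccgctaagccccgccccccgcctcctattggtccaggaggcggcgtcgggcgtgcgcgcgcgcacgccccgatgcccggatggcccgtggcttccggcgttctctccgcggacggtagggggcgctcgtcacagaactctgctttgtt
Ccng1: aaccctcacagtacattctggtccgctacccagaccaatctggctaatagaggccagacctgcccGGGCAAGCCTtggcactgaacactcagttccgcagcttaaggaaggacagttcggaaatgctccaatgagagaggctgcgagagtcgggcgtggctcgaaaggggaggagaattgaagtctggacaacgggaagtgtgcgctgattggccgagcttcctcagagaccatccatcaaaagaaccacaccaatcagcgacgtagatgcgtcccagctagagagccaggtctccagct
Phlda3: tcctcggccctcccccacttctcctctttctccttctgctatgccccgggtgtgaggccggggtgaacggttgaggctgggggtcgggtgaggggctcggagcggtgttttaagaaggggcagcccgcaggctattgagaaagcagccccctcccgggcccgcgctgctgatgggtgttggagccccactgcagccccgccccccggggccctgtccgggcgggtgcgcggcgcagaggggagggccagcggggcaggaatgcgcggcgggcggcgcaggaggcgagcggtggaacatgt
The Cdkn1a window shown is 1 of 2 for that gene and holds 2 decamers. They lie at 73 and 51 bases before the start site of this window, as a pair separated by at most 13 bases. Such a pair occurs in 0.0731% of the 32851 RefSeq windows of mouse genes. Single decamers lie in the Mdm2 window (186 bases before the start site) and the Ccng1 window (185 before), and also in those of Trp53 (75 before) and Bax (201 before). None matched in the Phlda3 window or in those of the other genes. A decamer occurs in 8.36% of all windows. The Cdkn1a window shown holds 2 CpG dinucleotides, against 35 for Mdm2, 14 for Ccng1 and 26 for Phlda3. The other Cdkn1a window, chr17:29093519-29093818 (+), belongs to a start site further downstream. It holds 23 CpG dinucleotides and no decamer.

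At day 9 the 3BKO cells had the highest summed level of 7 of the 10 genes among the 6 groups. The share of all genes highest in that group was not computed. Of the 7, only Bcl2l11 had batch ranges that did not overlap those of the next group. All 10 were above WT in both batches, at a median log2 ratio of 0.82, against -0.08 over the 9235 genes detected in that comparison. A gene was called past 2-fold when 20% or more of the cells in one of the groups had reads and it reached a log2 ratio of (CPM + 1) of 1 or more in size, with the same sign, in each batch. By that rule 3 of the 10, Phlda3, Bcl2l11 and Mcl1, were higher in 3BKO and none was lower, against 2.86% of detected genes higher and 4.98% lower. Signs were the same in both batches, in either direction, for 66.2% of all detected genes. The share of them above WT in both batches was not computed. The 67 3BKO cells were those left from 93, and levels of the 10 genes with no cell filter gave the same 3 calls.

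In WT, Phlda3 had 77.3 CPM (batch 1) and 46.4 CPM (batch 2), and in 3BKO it had 207 and 116. The 3BKO libraries thus lay above both WT libraries, at log2 ratios of 1.41 and 1.30. After thinning, 77.6% of 3BKO cells had a Phlda3 read (exact 95% binomial interval 65.8% to 86.9%), against 50.6% of WT cells (39.8% to 61.3%). The median 3BKO cell had 169 CPM in batch 1 and 107 in batch 2, and the median WT cell 19.4 and 23.1. The median WT cell of the same batch was exceeded by 74.6% of the 67 3BKO cells.

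Mdm2 had 112 and 111 CPM in the batches of WT and 191 and 383 in 3BKO. Its log2 ratio was 0.76 in batch 1 and 1.78 in batch 2, so it was past 2-fold in batch 2 alone, and 1.39 with both batches summed. A read was seen in 88.1% of thinned 3BKO cells (77.8% to 94.7%) and in 65.2% of WT cells (54.3% to 75.0%), and 77.6% of 3BKO cells exceeded the WT median. These intervals cover the sampling of cells only, with cells taken as independent, and not the spread between libraries or cultures. Copies of 1 molecule cannot be recognised in such reads, so intervals on read counts take copies as separate.

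Cdkn1a had 152 and 87.4 CPM in WT and 238 and 144 in 3BKO, log2 ratios of 0.64 and 0.71. One cell held 39.6% of the Cdkn1a reads of 3BKO batch 2, and without the cell with the most reads in each library the summed ratio was 0.33 in place of 0.53. It stayed under the 2-fold limit in both batches, and the range of the WT batches overlapped that of 3BKO. The share of thinned cells with a read was 79.1% (67.4% to 88.1%) against 59.6% (48.6% to 69.8%) in WT, and 70.1% of 3BKO cells exceeded the WT median. Ccng1, for a cyclin induced by p53, had 125 and 227 CPM in WT and 144 and 342 in 3BKO, log2 ratios of 0.20 and 0.59. Trp53 had 1382 and 589.8 CPM in WT and 1506 and 729.7 in 3BKO, log2 ratios of 0.12 and 0.31. Its summed ratio was -0.03, below both batches, since batch 2, with the lower Trp53 level, held 16249575 of 30287278 reads in 3BKO and 11953550 of 34821361 in WT.

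Mcl1 had the highest ratio of the 10 genes in batch 2 and with both batches summed, but was under Phlda3 and Bcl2l11 in batch 1, with 94.1 and 131 CPM in the WT batches and 213 and 467 in those of 3BKO. These are log2 ratios of 1.17 and 1.82, and 1.70 with both batches summed, above 98.4% of detected genes. Reads were seen in 91.04% of thinned 3BKO cells (81.5% to 96.6%) and in 65.2% of WT cells (54.3% to 75.0%). One 3BKO cell of batch 2 held 25.3% of that library's Mcl1 reads. Leaving out the cell with the most reads of each gene in each library kept Mcl1, Phlda3 and Bcl2l11 past 2-fold.

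The other survival gene, Bcl2l1, had 23.05 and 24.2 CPM in WT and 47.8 and 34.03 in 3BKO, log2 ratios of 1.02 and 0.48. Bcl2l11 had 9.14 and 6.11 CPM in WT and 22.4 and 20.4 in 3BKO, log2 ratios of 1.21 and 1.59. Its reads were concentrated in few cells, with 42.1% and 45.2% of the WT reads and 26.3% and 45.02% of the 3BKO reads in 1 cell of each batch. A read was seen in 26.9% of thinned 3BKO cells (16.8% to 39.1%) and 11.2% of WT cells (5.52% to 19.7%). Bbc3 had 6.82 and 7.28 CPM in WT and 11.5 and 15.5 in 3BKO, but its share of thinned cells with a read was 17.9% (9.61% to 29.2%) against 19.1% (11.5% to 28.8%). Bax had 340.5 and 153 CPM in WT and 386 and 226 in 3BKO, log2 ratios of 0.18 and 0.56. Its WT and 3BKO batches overlapped widely.

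**Figure D2:**
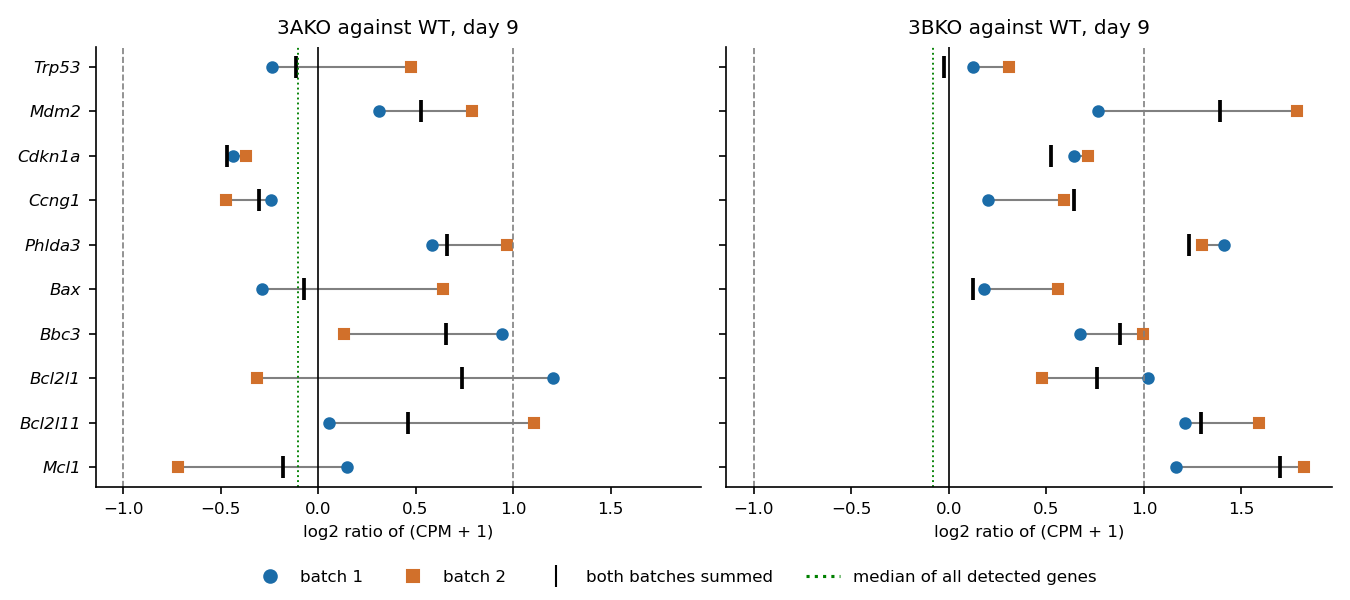
Log2 ratio of (CPM + 1) of each mutant to WT at day 9 for the 10 genes, with batch 1 as circles, batch 2 as squares and both batches summed as bars; dashed lines mark a log2 ratio of 1 in either direction and the dotted line the median of all detected genes. All 20 batch values of 3BKO lie above 0, with Phlda3, Bcl2l11 and Mcl1 above 1 in both batches.

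In 3AKO at day 9 none of the 10 genes was past 2-fold in both batches, against 1.07% of detected genes higher and 1.59% lower. The median log2 ratio was 0.19, against -0.10 over 9201 detected genes. Mdm2, Phlda3, Bbc3 and Bcl2l11 were above WT in both batches, Cdkn1a and Ccng1 were below WT in both, and the other 4 had different signs in the batches. The sign was thus the same in both batches for 6 of the 10, near the share of all detected genes, 56.8%. Mdm2 had 139.6 and 192 CPM in the batches of 3AKO, log2 ratios of 0.31 and 0.79 to WT. The higher sums were not seen in the typical cell: 62.5% of thinned 3AKO cells had a read, and the median cell (52.8 and 61.8 CPM) was under that of WT (58.6 and 68.9). Phlda3 had 116 and 91.9 CPM, log2 ratios of 0.58 and 0.97. Both 3AKO libraries lay above both WT libraries for these genes.

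Cdkn1a had 112 and 67.3 CPM in 3AKO, log2 ratios of -0.44 and -0.37 to WT, and Ccng1 had 106 and 163 CPM, at -0.24 and -0.47. Mcl1 had 105 and 79.2 CPM, with log2 ratios of 0.15 and -0.72. Bcl2l1 had 54.4 and 19.3 CPM, at 1.20 and -0.31, and Bcl2l11 9.53 and 14.3 CPM, at 0.05 and 1.11. One cell held 67.6% of the Bcl2l11 reads of batch 2. Bbc3 had 14.05 and 8.08 CPM, at 0.94 and 0.13. Trp53 had 1174 and 821 CPM and Bax 279 and 239.5, both lower than WT in batch 1 and higher in batch 2.

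**Figure D3:**
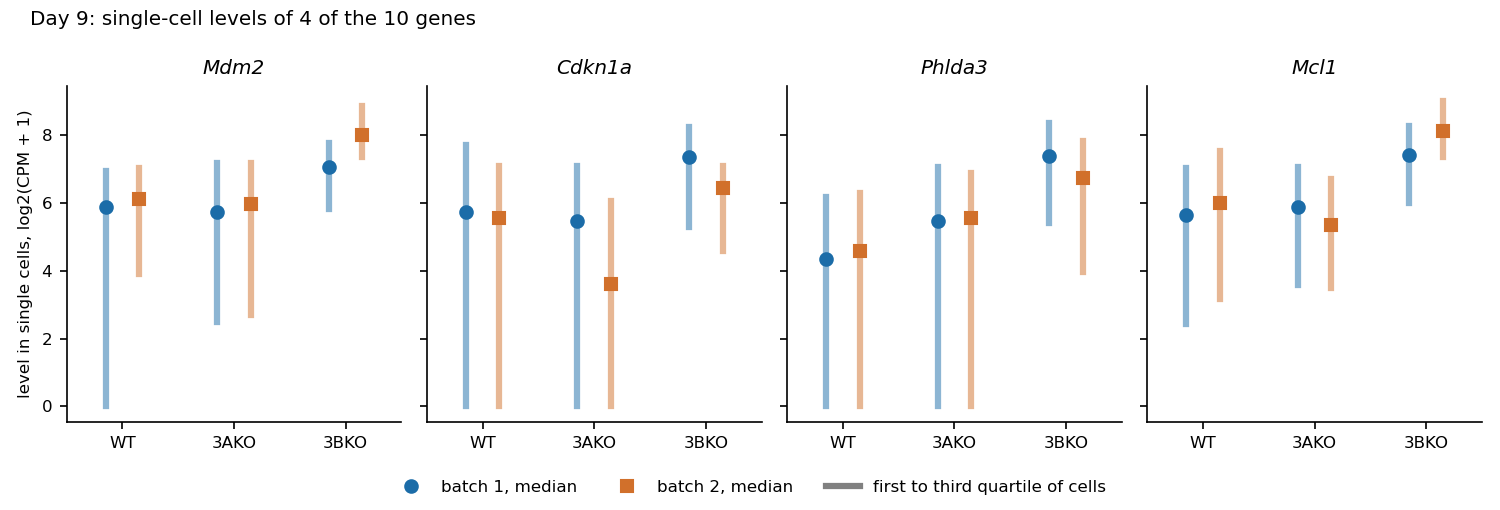
Single-cell levels at day 9 as log2(CPM + 1) for Mdm2, Cdkn1a, Phlda3 and Mcl1 in WT, 3AKO and 3BKO, with the median as a point and a bar from the first to the third quartile for each batch. The 3BKO medians lie above the WT and 3AKO medians of the same batch in each panel, and the quartile bars of 3BKO overlap those of WT in each case but Mdm2 in batch 2.

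Set directly against each other at day 9, 3BKO exceeded 3AKO in the summed level of all 10 genes, with a median log2 ratio of 0.70 against -0.0014 over 9152 detected genes. Cdkn1a and Mcl1 were past 2-fold in both batches, against 4.56% of genes higher and 4.91% lower. The call of Cdkn1a was lost without the cell with the most reads in each library, with a summed ratio of 0.90, that of Mcl1 after thinning or by the mean of single cells, and both with a pseudocount of 10. For Cdkn1a the log2 ratios were 1.07 and 1.09, and 74.6% of 3BKO cells lay above the 3AKO median of their batch. For Mcl1 they were 1.02 and 2.54, with 79.1% of cells. Ccng1 had 0.44 and 1.06, Mdm2 0.45 and 0.99 and Bcl2l11 1.15 and 0.48. Trp53 (0.36 and -0.17), Bax (0.47 and -0.08), Bbc3 (-0.27 and 0.86) and Bcl2l1 (-0.18 and 0.79) had different signs in the batches. The sign was the same in both batches for 6 of the 10 genes and for 66.6% of all detected genes. The comparisons of either mutant with WT share the WT libraries, and this last one shares its libraries with both.

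Between day 3 and day 9 of WT EBs no gene was past 2-fold in both batches, against 5.25% of 10162 detected genes higher at day 9 and 2.19% lower. The summed levels of Mdm2, Cdkn1a, Ccng1 and Phlda3 were higher at day 9, and those of 4 apoptosis regulators, all but Bax, lower. Cdkn1a had 84.9 and 33.1 CPM at day 3, against 152 and 87.4 at day 9, log2 ratios of 0.83 and 1.38. Phlda3 had 39.1 and 22.2 CPM at day 3, with log2 ratios of 0.96 and 1.03. Mdm2 had 70.9 and 72.4 CPM at day 3, with 0.66 and 0.61, and Trp53 had 832 and 477 CPM, with 0.73 and 0.31. The share of thinned WT cells with a read at day 3 and day 9 was 73.4% and 65.2% for Mdm2, 54.4% and 59.6% for Cdkn1a and 45.6% and 50.6% for Phlda3.

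Mcl1 had 177 and 260.2 CPM at day 3 of WT, and its log2 ratios of day 9 to day 3 were -0.90 and -0.98. The share of thinned cells with an Mcl1 read was 97.5% at day 3 (91.2% to 99.7%) and 65.2% at day 9 (54.3% to 75.0%). Bcl2l11 had 15.1 and 10.2 CPM at day 3, with -0.67 and -0.65. The batches did not go together for Bcl2l1, with 57.1 and 23.2 CPM at day 3 and ratios of -1.27 and 0.06. Bbc3 had 28.4 and 2.48 CPM at day 3, with -1.91 and 1.25, and Bax 286 and 138 CPM, with 0.25 and 0.15. The median of all detected genes in this comparison was 0.19, and median-ratio size factors shifted it by -0.19. By those factors or by TMM factors Mcl1 was past 2-fold lower. At day 9 the 3BKO level of Mcl1, 349 CPM, was above the level of WT at day 3, 213 CPM, while those of WT (107) and 3AKO (94.1) were below it.

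Over the 6 groups the highest summed level exceeded the lowest by 4.97-fold for Phlda3, 4.52-fold for Cdkn1a, 4.11-fold for Mdm2 and 3.71-fold for Mcl1. The ratio was 2.97 for Bcl2l1, 2.63 for Bcl2l11, 2.47 for Bbc3, 1.94 for Ccng1, 1.78 for Trp53 and 1.35 for Bax. When the groups were put in order of level, most neighbours had batch ranges that overlapped, with the day 3 mutant groups taken by label and so including the libraries in doubt. Those that did not were WT at day 9 above label 3BKO at day 3 and the latter above WT at day 3 for Mdm2, label 3BKO above WT at day 3 for Phlda3, and 3AKO above WT at day 9 for Bbc3. The others were 3BKO at day 9 above label 3BKO at day 3 for Bcl2l11 and WT at day 3 above WT at day 9 for Mcl1.

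**Figure D4:**
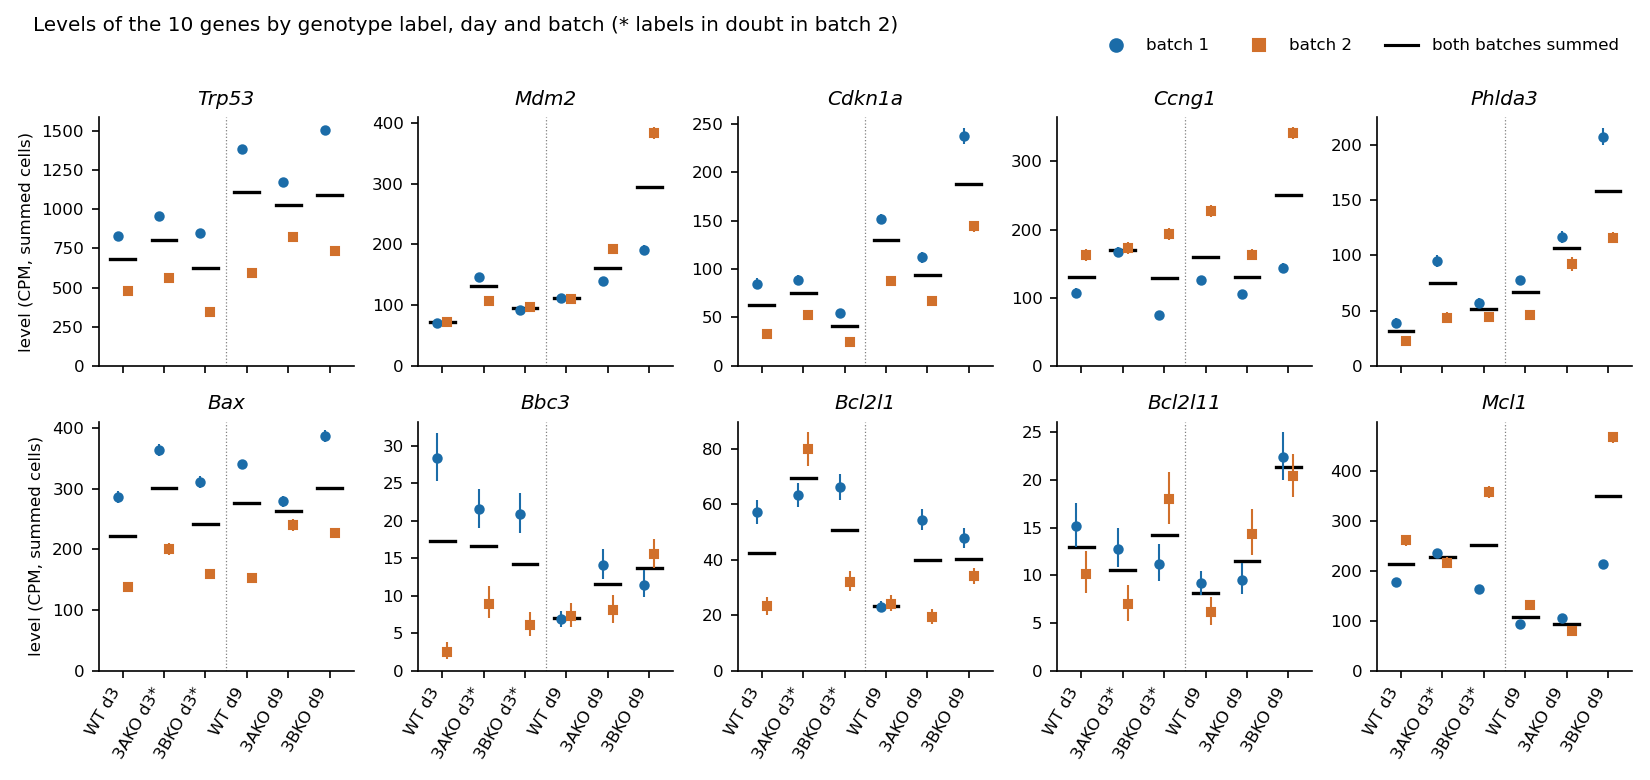
Level of each gene in CPM of summed cells for the 6 combinations of genotype label and day, with batch 1 as circles, batch 2 as squares, both summed as lines and thin vertical bars on the points for the 95% counting interval; each panel has its own axis from 0. By the summed lines the 3BKO day 9 group is the highest for 7 genes, mostly with batch ranges that overlap those of the next group. Batch 1 lies above batch 2 for Trp53, Cdkn1a, Phlda3 and Bax in each group.

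At day 3 in batch 1 the cells labelled 3AKO had 2 genes past 2-fold, Mdm2 and Phlda3, both higher than WT, against 5.1% of 10858 detected genes higher and 3.43% lower. Phlda3 had 39.1 CPM in WT and 94.9 in the library labelled 3AKO, a log2 ratio of 1.26, and 77.6% of the 58 cells lay above the WT median. Mdm2 had 70.9 and 146 CPM, a log2 ratio of 1.03. One cell held 42.7% of the Mdm2 reads of that library, and without the cell with the most reads in each library the ratio was 0.53. Ccng1 had 107 and 167 CPM at 0.63, Mcl1 was at 0.40, Bax at 0.35 and Trp53 at 0.20. Cdkn1a was at 0.07, Bcl2l1 at 0.15, Bcl2l11 at -0.23 and Bbc3 at -0.38. The median of the 10 was 0.27, against 0.0055 over all detected genes.

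In the cells labelled 3BKO of the same day and batch none was past 2-fold, against 3.44% of 10641 detected genes higher and 2.6% lower. Phlda3 had 56.99 CPM (log2 ratio 0.53) and Mdm2 92.3 CPM (0.38), while Cdkn1a had 54.7 CPM (-0.62) and Ccng1 75.2 CPM (-0.51). The other 6 genes lay between -0.42 for Bbc3 and 0.21 for Bcl2l1. The median was -0.04. Above WT were 5 of 10, against 50.9% of all detected genes.

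By plate, the wells in doubt can be set beside those of batch 1. Plate 211 carried the wells labelled 3AKO of batch 1 together with those labelled 3BKO of batch 2, and Dnmt3a was low in both, at log2 ratios of -4.09 and -4.28 to WT of the same batch. There Phlda3 was at 1.26 in batch 1 and 0.96 in batch 2, Mdm2 at 1.03 and 0.43, Ccng1 at 0.63 and 0.26, and Mcl1 at 0.40 and 0.45. Plate 210 carried the wells labelled 3BKO of batch 1 and 3AKO of batch 2, with Dnmt3b at -1.84 and -2.61. Dnmt3b was also under WT on plate 211, at -1.20 and -1.49, so Dnmt3a separates the plates more clearly. There Phlda3 was at 0.53 and 0.94 and Mdm2 at 0.38 and 0.55, whereas Cdkn1a (-0.62 and 0.65) and Ccng1 (-0.51 and 0.09) had different signs. Phlda3 and Mdm2 were thus above WT in all 4 mutant libraries of day 3, whichever way the labels are read. Bax and Bcl2l1 were above WT in all 4 as well. The share of all genes above WT in all 4 was not computed, and the libraries of a batch share 1 WT library.

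**Figure D5:**
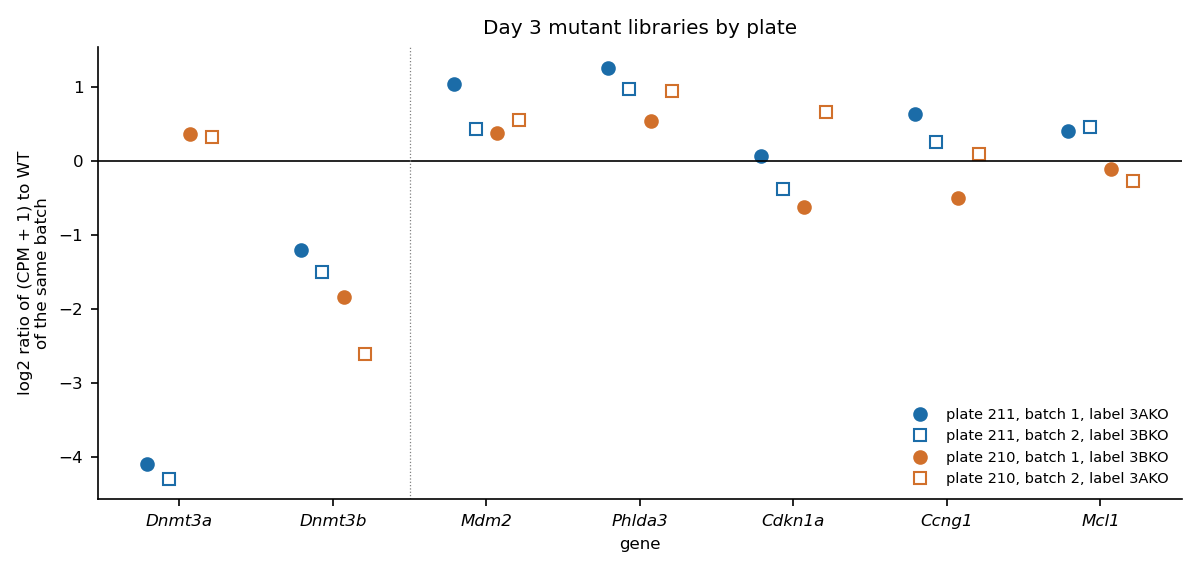
Log2 ratio of (CPM + 1) to WT of the same batch for the mutant libraries of day 3, by plate (colour) and batch (filled circles for batch 1, open squares for batch 2), for the deleted genes and 5 of the 10 genes. Dnmt3a is below -4 on plate 211 in both batches and above 0 on plate 210, and Mdm2 and Phlda3 are above 0 in all 4 libraries. Bax and Bcl2l1, also above 0 in all 4, are not drawn.

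A list of 23 other known p53 targets was read beside the 10 genes. In 3BKO at day 9, 19 were detected, 16 of them above WT (45.2% of all detected genes were), with a median log2 ratio of 0.71. Against 2.86% of all detected genes, 4 were past 2-fold higher, and the largest were Eda2r, a TNF receptor family member (90.5 against 24.2 CPM in WT, log2 ratio 1.86), the kinase gene Plk2 (321 against 88.97, 1.84) and the adenylate kinase gene Ak1 (184 against 64.5, 1.49). The death receptor gene Tnfrsf10b was past 2-fold in the other direction, 1.95 against 11.3 CPM, a log2 ratio of -2.06. In 3AKO at day 9 none of 20 detected targets was past 2-fold, 6 were above WT and 14 below, and the median was -0.30, where 40.9% of all detected genes were above WT. In 3BKO against 3AKO 18 of 19 were higher (49.9% of all detected genes), 6 of them past 2-fold (4.56%), led by Eda2r at 2.36, Perp at 2.00 and Ak1 at 1.98, and Tnfrsf10b was lower.

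In the library labelled 3AKO at day 3, batch 1, 5 of 21 detected targets were past 2-fold higher (5.1% of all detected genes) and none lower, with a median of 0.41. The largest were Ak1 (1.67), Perp (1.56) and Trp53inp1 (1.12). In the library labelled 3BKO Eda2r alone was past 2-fold, at 1.74, where 3.44% of all detected genes were higher, and the median was 0.07. From day 3 to day 9 of WT, Gdf15, Tnfrsf10b and Perp were past 2-fold higher, at log2 ratios of 1.95, 1.40 and 1.10, among 21 detected. Of all detected genes 5.25% were.

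The shares of all detected genes past 2-fold, given above, ran from 1.07% to 5.25% by comparison and direction. Calls in this list and those below, mostly of single genes, are to be set beside these shares. Among 15 regulators of p53, 11 were detected in 3BKO against WT at day 9, with none past 2-fold higher, 1 lower and a median of -0.10. The lower one was Trp53bp1, for a DNA damage response protein that binds p53, with 20.97 against 64.7 CPM in WT, a log2 ratio of -1.58. Trp53bp1 shares 2130 exon bases with Tubgcp4 on the opposite strand. Mdm4, the paralogue of Mdm2 that restrains p53, had 170 against 89.6 CPM, with log2 ratios of 0.39 and 0.91 in the batches. In 3AKO 1 of 11 was past 2-fold, Prkdc, for the catalytic subunit of a DNA repair kinase, at -1.09. None of 11 was past the limit in 3BKO against 3AKO. From day 3 to day 9 of WT, Trp53bp1 was the 1 of 11 past 2-fold, at 1.51. At day 3 the kinase gene Hipk2 was the 1 of 12 in the library labelled 3AKO, at 1.69 from 0.711 CPM in WT, and none of 11 passed in that labelled 3BKO.

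Of 12 other members of the BCL2 family, 6 were detected in each day 9 comparison. None was past 2-fold in 3BKO against WT, where the median was -0.42, or against 3AKO. Bnip3, for a mitochondrial BH3 protein, was higher in 3AKO, at 1.24. None of 7 passed between the days of WT. At day 3 Pmaip1, which encodes the BH3-only protein NOXA, was the 1 of 8 past 2-fold in each mutant library, with 7.65 CPM in WT, 27.6 in the batch 1 library labelled 3AKO and 21.3 in that labelled 3BKO. Its log2 ratios were 1.73 and 1.37.

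Among caspases and their partners, Xiap, for an inhibitor of caspases, was the 1 of 12 detected past 2-fold in 3BKO against 3AKO at day 9, at 2.03. None passed in 3AKO against WT at day 9 (12 detected), between the days of WT (13) or in the library labelled 3BKO at day 3 (14).

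All 15 cell cycle genes were detected throughout. Ccnd2, for cyclin D2, was the 1 past 2-fold in 3BKO at day 9, with 12.7 against 86.3 CPM in WT, a log2 ratio of -2.67, and it was at -2.87 against 3AKO. None passed in 3AKO at day 9 or in the library labelled 3BKO at day 3. Cdkn1b, for the CDK inhibitor p27, and Ccne1, for cyclin E1, were lower at day 9 than at day 3 of WT, at -1.29 and -1.04, and the replication gene Mcm2 was at -1.28 in the library labelled 3AKO at day 3.

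A stress response to lack of amino acids, which shares targets with p53, was read from 12 genes, and its summed level at day 9 came to 1024 CPM for WT, 1091 for 3AKO and 1843 for 3BKO. In 3BKO it was 2670 in batch 1 and 1129 in batch 2, and in WT 1185 and 716. Of the 10 genes in 3BKO, Mdm2, Ccng1, Bbc3 and Mcl1 were higher in batch 2, and the others were higher in batch 1. Ddit4, an inhibitor of mTORC1 signalling, was the 1 of 8 past 2-fold in 3BKO, at 2.92 from 1.21 CPM in WT, and the 1 of 7 in 3AKO, at 3.67. Asns, for asparagine synthetase, was the 1 of 8 in 3BKO against 3AKO, at 1.22, and none of 8 passed between the days of WT. At day 3 Trib3, a pseudokinase gene, was lower in the libraries labelled 3AKO (-1.18) and 3BKO (-2.85), and Ddit4 was higher in that labelled 3BKO, at 1.31. The part of this response in the levels of the 10 genes was not tested.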

How the data were processed

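The authors sequenced single EB cells (WT, 3AKO, 3BKO; day 3, day 9) with a modified Smart-seq2 protocol. According to the study's methods and processing notes, the authors trimmed reads with Trim Galore 0.5.0, mapped them with STAR 2.7.1a to GRCm38 and counted them over the exons of each gene name with featureCounts 1.6.1, leaving out reads mapped to several places; the values deposited are raw counts of reads per gene and cell. The strand setting was not given in the sources used here. Of 550 cells, 486 had at least 50000 reads, at least 2000 genes and at most 50% mitochondrial reads and were kept, with 54720 to 1450202 reads each. Another 26 columns that belong to no single cell sample were not used.

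Groups followed the labels of genotype, day and batch. Counts were summed over the cells of a library, scaled to CPM and compared as log2(CPM + 1), which understates ratios of genes with few reads. With 1 sample per group no test was made. The 95% intervals are exact Poisson intervals of counting error for CPM and exact binomial intervals over cells for shares of cells. Shares of cells with a read and Spearman correlations used cells thinned to 50000 reads each. The 10 genes and the other gene lists were chosen with earlier results of these data known. Beyond the 10 genes, the text names genes of those lists that passed the 2-fold limit and the genes ranked most like each of the 10; Mdm4 and the markers singled out were named after their values were seen. The procedure was checked on simulated counts. Alternatives changed the cell filter, batch, scaling (TMM of edgeR 4.0.16, size factors of DESeq2 1.42.0), pseudocount, thinning and the way cells were averaged. Python 3.11.15, numpy 2.4.6, scipy 1.17.1, pandas 2.3.3 and R 4.3.3 were used. Promoter windows came from RefSeq and gene positions from GENCODE vM21, which held 97.0% of the gene names. Some results of the list of caspases and partners are not reported here.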

Additional observations from a re-analysis of the deposited data

Results flagged for a closer look

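Cdkn1a and Ccng1 were singled out because their summed levels lay on opposite sides of WT at day 9. They were below WT in both batches of 3AKO and above WT in both batches of 3BKO. For Ccng1 in batch 2, however, the median 3BKO cell was below the median WT cell. The log2 ratio of 3BKO to 3AKO was 0.99 for Cdkn1a and 0.94 for Ccng1. The difference was not tested, since each mutant is 1 sample.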

How the results depend on the processing

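The 2-fold calls of Phlda3 and Mcl1 in 3BKO against WT at day 9 were kept under all 13 alternatives. That of Bcl2l11 was kept under all but a pseudocount of 10 and the median of single-cell log2 values, where both medians were 0 and its ratio 0. Batch 1 alone and batch 2 alone are among the 13 and could not end a call, since a call already needs both batches. The median ratio of the 10 genes in that comparison was 0.72 in batch 1 alone and 0.70 without the cell with the most reads. It was 0.92 with median-ratio size factors and 0.60 with a pseudocount of 10. For 3AKO against WT at day 9, 1 gene was past 2-fold in batch 1 alone (Bcl2l1) and 1 in batch 2 alone (Bcl2l11), and the median was -0.077 by the median of cells and -0.0057 after thinning. For 3BKO against 3AKO the median of cells gave 5 genes and a median of 1.28, and a pseudocount of 10 gave 0 genes. Leaving out the cell with the most reads ended the call of Cdkn1a in that comparison and added Bcl2l11, and thinning or the mean of cells that of Mcl1.

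For WT day 9 against day 3, 1 gene was past 2-fold with a stricter cell filter, the mean of cells, a total that leaves out mitochondrial genes and Gm42418, TMM or median-ratio factors, 2 in batch 1 alone, and 3 in batch 2 alone or by the median of cells. The median was 0.17 with that total, 0.14 with TMM and 0.098 with median-ratio factors. For the library labelled 3AKO at day 3, 1 gene was past 2-fold by the mean of cells, after thinning, without the top cell or with a pseudocount of 10, and the median was 0.54 in batch 2. For the library labelled 3BKO, 1 gene was past 2-fold with no cell filter and 1 in batch 2, 3 by the median of cells, and the median was 0.44 in batch 2. The causes were not tested. No paired analysis was possible because each group is 1 sample and no test was made.

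With 2 library batches, no clone labels and at most 89 cells per group, spread between cultures is unknown. Genes with few reads, Bcl2l11 and Bbc3, are the least precise.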
